A study of Mus musculus with 15 samples.

Results

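Chromatin accessibility was compared between islets of KO-labelled and control mice before partial pancreatectomy (PPx, surgical removal of part of the pancreas). The comparison covered all 7826 peaks near 6682 genes that the authors' deposited table lists for this contrast. It used 7 of the 15 libraries of the series, 4 from control mice and 3 from KO-labelled mice. All mice were males aged 3 months that carried floxed Arid1a alleles and MIP-rtTA, a doxycycline-dependent activator under the mouse insulin promoter. TRE-Cre was present in the KO-labelled mice alone, and with it doxycycline induces Cre recombinase in cells with insulin promoter activity. Controls lacked TRE-Cre, so the presence of Cre and the loss of Arid1a cannot be told apart in this design. Both groups drank doxycycline at 1 g/L for 2 weeks, and an interval of 1 week from its withdrawal to PPx is listed for all samples. Each library was made from 40000 cells of whole islets, which hold alpha, delta and other cells beside beta cells, and only the insulin-expressing cells are targeted. In such bulk samples, fewer cells of a type and less open chromatin per cell cannot be told apart.

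ARID1A is the large DNA-binding subunit of the BAF form of the SWI/SNF complex, which uses ATP to slide or evict nucleosomes and is known to act at enhancers more than at promoters. ATAC-seq reports where the Tn5 transposase can cut, so that a nucleosome-free promoter or enhancer gives a peak of reads. In beta cells, open promoters and enhancers mark the genes for insulin production and secretion and for the transcription factors that maintain them.

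The deposited values are log2 concentrations, that is log2 of the normalised reads in a peak averaged over the libraries of a group, and a difference here is KO-labelled minus control on that scale. Values per library and depth per library are unknown, so each group is given by the authors' mean. The error of a difference is a 95% interval from the standard error implied by the deposited difference and p. The median standard error was 0.43, so the interval of a typical peak reached 0.85 to either side. The median peak concentration was 4.02. In 10 equal bins of concentration the median standard error ran from 0.66 in the lowest to 0.32 in the highest. Even before adjustment for the number of peaks, changes well under 1 log2 unit were therefore not detectable for most single peaks. The authors' false discovery rate (FDR), which adjusts for that number, set a stricter limit. The distal Chd1l peak at -2.44 (standard error 0.81) and the Slc30a8 intron peak at -1.45 (standard error 0.44) did not pass it.

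Promoter sequences are shown for 4 of the peaks with a higher KO-labelled value at an unadjusted p under 0.05, which are described below. They were taken from RefSeq (GRCm38.p6, the same coordinates as mm10) and run 5′ to 3′ on the strand of the gene. Capitals mark CCAAT boxes (CCAAT), SP-type GC boxes (GGGCGG) and homeobox core letters (TAATTA) on either strand. The Ins1 window lies at chr19:52264047-52264346 on the plus strand, Cldn1 at chr16:26371790-26372089 on the minus strand, Rab9 at chrX:166479818-166480117 on the minus strand and Ttf2 at chr3:100969614-100969913 on the minus strand.
Ins1: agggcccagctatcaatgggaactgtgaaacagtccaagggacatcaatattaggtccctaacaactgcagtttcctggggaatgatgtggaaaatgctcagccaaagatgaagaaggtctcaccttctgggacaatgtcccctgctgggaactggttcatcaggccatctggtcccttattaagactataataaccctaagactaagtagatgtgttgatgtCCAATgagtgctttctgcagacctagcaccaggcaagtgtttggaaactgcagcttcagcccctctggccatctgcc
Cldn1: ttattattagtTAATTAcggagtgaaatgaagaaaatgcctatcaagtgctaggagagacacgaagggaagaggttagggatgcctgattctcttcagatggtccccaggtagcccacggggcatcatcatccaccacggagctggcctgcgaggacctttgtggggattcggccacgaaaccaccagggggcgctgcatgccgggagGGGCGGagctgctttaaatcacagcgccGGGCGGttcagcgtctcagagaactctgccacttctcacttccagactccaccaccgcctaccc
Rab9: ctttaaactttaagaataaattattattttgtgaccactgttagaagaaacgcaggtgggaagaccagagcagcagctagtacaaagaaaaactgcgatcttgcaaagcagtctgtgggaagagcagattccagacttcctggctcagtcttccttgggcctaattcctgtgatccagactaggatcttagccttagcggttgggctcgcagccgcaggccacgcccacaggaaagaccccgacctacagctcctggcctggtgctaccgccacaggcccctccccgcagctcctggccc
Ttf2: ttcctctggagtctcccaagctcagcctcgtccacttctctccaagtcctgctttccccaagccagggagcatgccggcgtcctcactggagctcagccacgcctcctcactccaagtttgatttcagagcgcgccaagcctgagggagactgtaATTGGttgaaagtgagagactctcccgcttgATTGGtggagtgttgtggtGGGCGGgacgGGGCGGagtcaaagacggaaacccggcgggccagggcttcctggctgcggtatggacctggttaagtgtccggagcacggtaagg
The Ins1 window held 1 CCAAT box and no CpG, at a GC content of 48.3%. Cldn1 held 15 CpG and 2 GC boxes, and Ttf2 held 16 CpG, 2 GC boxes and 2 CCAAT boxes. The Rab9 window held 9 CpG and none of the motifs searched.

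A single peak passed the authors' FDR of 0.05, and it lay in Arid1a itself. This was 1 of 7826 peaks, or 0.0128%, and each of the other 7825 peaks had an FDR of 1. The Arid1a peak lies at chr4:133692981-133693581 (mm10), in exon 9 of 20. In the authors' deposited table its concentration was 1.21 in controls and 5.49 in KO-labelled islets, a difference of 4.28 (95% interval 2.66 to 5.90; FDR 0.00187). No control library of 4 and all 3 KO-labelled libraries had a call there. The gene targeted by the knockout thus had more reads in this exon under the KO label, and no Arid1a promoter peak is listed. The sources used here do not state which exons are deleted, so the peak does not check the labels. For this reason the groups are named by their labels throughout.

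Over all peaks the median difference was 0.00, with quartiles of -0.27 and 0.24. The authors' deposited table gives an unadjusted p under 0.05 for 66 higher peaks (0.843% of those tested) and for 180 lower peaks (2.30%). Together they made up 3.14% of peaks. None of them other than Arid1a passed the FDR, so their values are given as descriptions. Differences above 1 log2 unit were listed for 42 peaks and differences below -1 for 188 peaks.

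**Figure D1:**
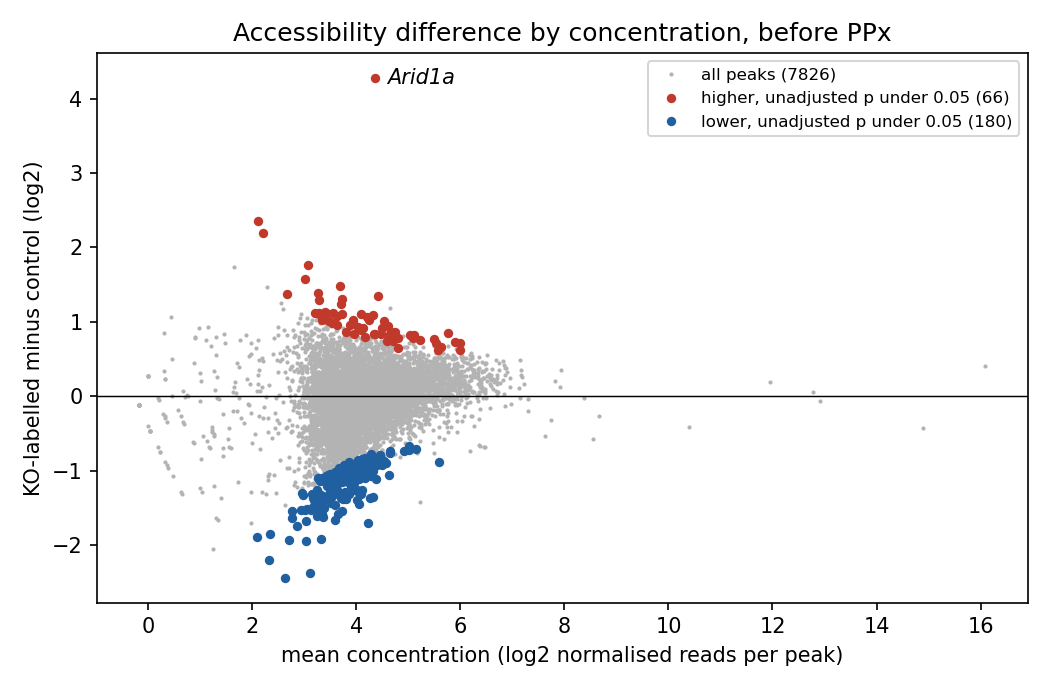
Each point is 1 of 7826 peaks, with its mean log2 concentration on the x axis and its log2 difference (KO-labelled minus control) on the y axis. Red and blue points are the 66 higher and 180 lower peaks with an unadjusted p under 0.05, and Arid1a stands alone at 4.28.

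Of the 66 higher peaks, 42 were promoter peaks, and promoters made up 70.0% of all peaks listed. Described next are the named genes among the 12 higher peaks with the smallest p, which leaves out predicted genes such as Gm5274, whose distal peak had the smallest p after Arid1a (difference 1.35). The promoter of Cldn1, which encodes a tight junction protein, had concentrations of 3.01 in controls and 4.32 in KO-labelled islets in the authors' deposited table (difference 1.31, interval 0.43 to 2.20). That of Rab9, a small GTPase of late endosome to Golgi transport, went from 2.86 to 4.34 in the authors' deposited table (1.48, interval 0.46 to 2.50). Both had calls in all 3 KO-labelled libraries and in no control. An exon 5 peak of Fez2 was listed at 2.05 and 3.82 and showed the same division of calls. A distal peak assigned to Psg26 differed by 2.35, at low concentrations of 0.64 and 2.99. Others were a distal Etv1 peak (0.85) and promoter peaks of Cdk14 (1.06), Bub3 (1.03), Ttf2 (1.01), Paqr3 (0.82) and Ankrd50 (0.76). Bub3 encodes a spindle checkpoint protein, and Ttf2 a transcription termination factor.

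Of the 180 lower peaks, 54 were promoter peaks. The named genes among the 12 lower peaks with the smallest p are described next. An intron 2 peak of Slc30a8, the gene of the granule zinc transporter ZnT8, was at 4.51 in controls and 3.06 in KO-labelled islets in the authors' deposited table (chr15:52315984-52316584; difference -1.45, interval -2.32 to -0.58). It was called in all 4 control libraries and in 0 of 3 KO-labelled ones. An intron 2 peak of Kirrel3, an adhesion molecule, gave 4.51 and 3.19 with the same division of calls. A distal peak near Cntnap5b differed by -2.38. An intron 3 peak of Pde4d, a cAMP phosphodiesterase, differed by -1.67. Distal peaks near Fam107a (-1.70), Nnt (-1.92) and n-R5s165 (-1.26) and intron peaks of Senp7 (-1.95) and Tmem267 (-1.36) followed. Sepsecs (-1.39) and Lrrc74b (-1.55) were represented by promoter peaks.

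The number of libraries in which a peak was called gives a second view of the same groups. All 7 libraries had a call at 2109 peaks, 26.9% of the table. Calls in every KO-labelled and no control library were listed for 60 peaks (0.767% of all peaks). Calls in every control and no KO-labelled library were listed for 11 (0.141%). For a single peak, the two-sided Fisher's exact test gives such a complete division p = 0.0286, before any adjustment for 7826 peaks. Across all peaks, a KO-labelled library had a call at 70.5% of peaks on average and a control library at 61.4%. Depth per library, which moves the number of calls, is not known, and its part in these counts was not tested.

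The 11 peaks called only in controls included, beside Slc30a8 and Kirrel3, intron peaks of Erich6 (-1.10) and Rasgrf2 (-0.98) and the promoters of Kdm5a (-0.96), a histone demethylase gene, and Akap8 (-0.87, interval -1.78 to 0.04). The 60 called only in KO-labelled libraries included Arid1a, Cldn1, Fez2 and Rab9. Calls and concentrations did not always point the same way. The Tmem267 peak had calls in the 3 KO-labelled libraries and in no control, while its concentration was 4.75 in controls and 3.40 in KO-labelled islets in the authors' deposited table. It was 1 of 3 peaks among the 60 with a negative difference.

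**Figure D2:**
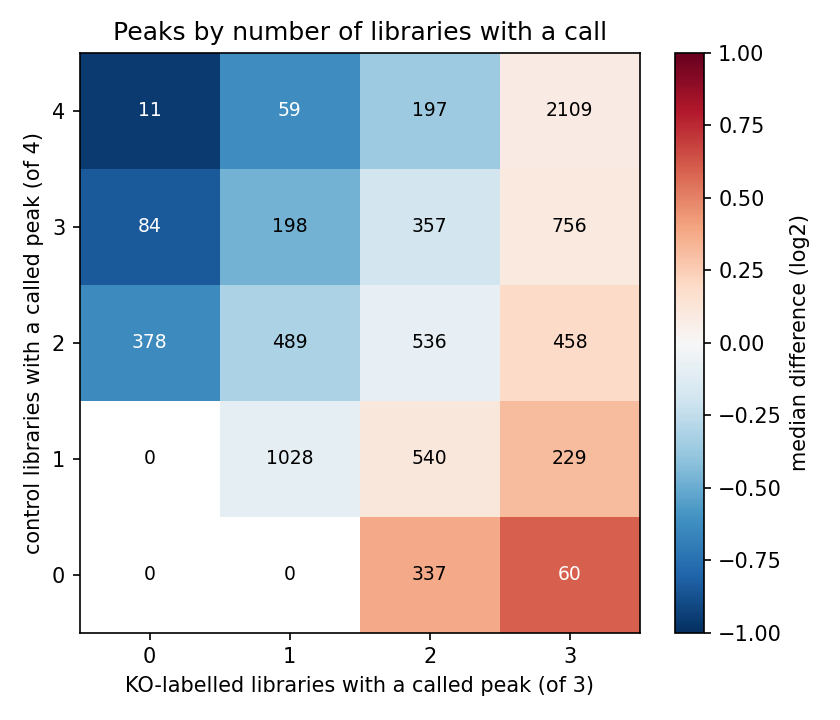
Each cell gives the number of peaks with that number of calls among the 4 control libraries (y axis) and the 3 KO-labelled libraries (x axis), coloured by the median log2 difference. The 11 peaks of the top left cell had a median of -0.96 and the 60 of the bottom right cell a median of 0.60.

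The beta cell transcription factor list had 14 peaks of 10 genes, and none passed the FDR. Their median difference was 0.19, beside 0.00 over all peaks and 0.04 over all promoter peaks. Of the 14 peaks, 11 were promoter peaks and 9 were above 0, beside 48.9% of all peaks and 54.4% of all promoter peaks above 0. Promoter peaks of Pax6 (0.29, interval -0.33 to 0.91), Hnf4g (0.25), Rfx6 (0.14), Rfx3 (0.24) and Foxa2 (0.11) were all within their error of 0. The same held for the promoters of Nkx6-1 (-0.24, interval -1.03 to 0.55), which maintains beta cell identity, Isl1 (-0.08) and St18 (-0.29). The 2 Meis1 promoter peaks gave 0.33 and -0.20, and an intron 2 peak of St18 gave 0.30. A distal Isl1 peak was listed at 2.69 in controls and 3.81 in KO-labelled islets in the authors' deposited table (1.12, interval 0.12 to 2.12), called in 0 of 4 and 2 of 3 libraries. An intron 18 peak of Rfx6 was lower (-0.73, interval -1.60 to 0.14).

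The insulin and granule list had 19 peaks of 14 genes with a median of -0.10, and 13 of them were below 0 and 6 above. The median was 0.00 over all peaks (48.9% above 0) and -0.12 over peaks outside promoters (36.1% above 0). Of the 19 peaks, 9 were promoter peaks, with a median of 0.01. At an unadjusted p under 0.05, 1 peak of this list had a higher value and 3 a lower value, beside 0.843% and 2.30% of all peaks. The Ins1 promoter, upstream of a rodent insulin gene, was at 4.12 in controls and 5.08 in KO-labelled islets in the authors' deposited table (chr19:52263880-52264480; 0.95, interval 0.09 to 1.81). It was called in 1 of 4 and 3 of 3 libraries. The 3 lower peaks included the Slc30a8 intron peak above and an intron 12 peak of Ptprn2 (-1.08, interval -2.01 to -0.15). Genes of this list were thus found on both sides of 0.

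Different peaks of one granule gene also differed. Cpe, which encodes carboxypeptidase E of the granule, had a promoter at 0.66 (interval from just under 0 to 1.32) and 2 intron 1 peaks at -0.39 and -0.25. Scg3, a granin family gene, had a promoter at -0.09, an exon 7 peak at -0.14 and an intron 10 peak at -0.43. The second Ptprn2 peak, in intron 1, was at -0.09. The others were near 0 or within error: Chga distal (-0.45, interval -1.32 to 0.42), Scg5 (-0.33), Pcsk1 distal (-0.10), Rab3a (-0.06), Ero1lb (0.01), G6pc2 (0.03), Abcc8 exon 20 (0.07) and Ptprn (0.10).

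**Figure D3:**
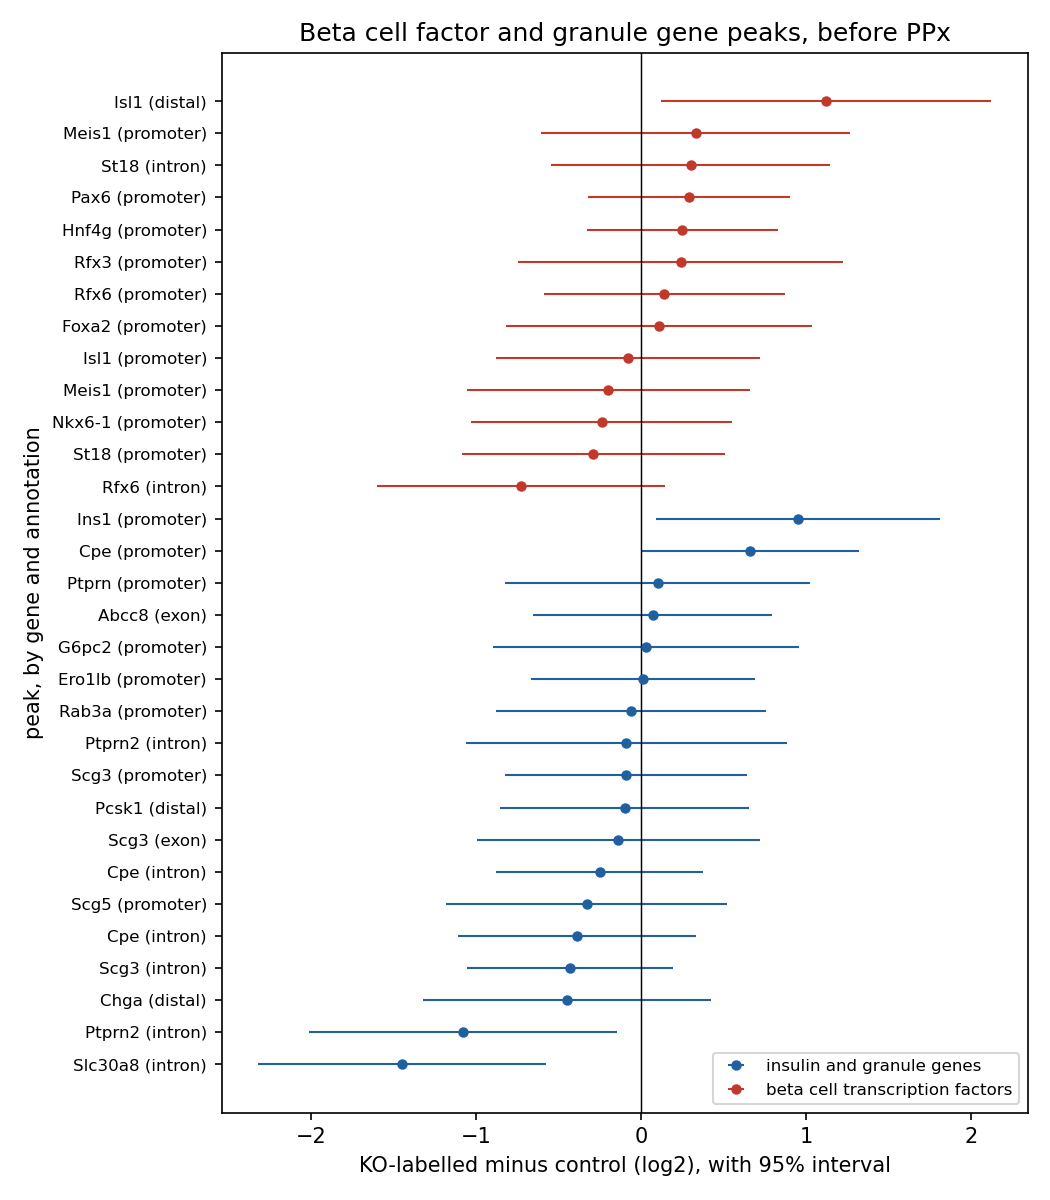
Points are the log2 differences (KO-labelled minus control) of 13 of the 14 transcription factor peaks (red) and 18 of the 19 granule gene peaks (blue), with 95% intervals on the x axis. Intervals of Isl1 distal and Ins1 lie above 0, and those of 1 Ptprn2 peak and Slc30a8 lie below it.

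Beside Arid1a, 8 peaks of 7 other SWI/SNF genes were listed, and none had an unadjusted p under 0.05. The ATPase genes Smarca4 (0.42, interval -0.48 to 1.32) and Smarca2 (-0.30, interval -1.11 to 0.51) had promoter peaks on opposite sides of 0. Arid1b, the paralogue of Arid1a, had an intron 4 peak at -0.18 and a distal peak at 0.02, both with intervals that included 0. The promoter peaks of Brd9 (-0.31), Phf10 (-0.23), Actl6a (0.05) and Ss18 (0.18) were also within their error of 0. Other chromatin remodeller genes had 17 peaks with a median of -0.15, from Chd1l distal at -2.44 (interval -4.03 to -0.85) to the Chd1 promoter at 0.48. Histone modifier genes had 42 peaks with a median of 0.03, from the Katna1 promoter at -1.14 to the Prmt3 promoter at 0.98. Katna1 encodes a microtubule-severing protein and entered that list through its symbol.

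Marker genes of other islet and pancreatic cells were sparsely represented. No peak was assigned to any of 18 acinar, 12 ductal or 17 leukocyte markers. Delta and PP cell markers had 5 peaks of 3 genes, with a median of 0.68. They were a distal Sst peak at 4.38 and 5.07 (0.68), a Ptprz1 intron peak (0.83) and 3 Etv1 peaks, of which the distal ones were at 0.85 and 0.55 and the promoter at -0.25. The median of this list thus rests on few loci. At an unadjusted p under 0.05, 1 of the 5 had a higher value, the distal Etv1 peak at 0.85, beside 0.843% of all peaks. Alpha cell markers had 5 peaks with a median of -0.20, the highest at a Dpp10 intron (0.15), and Gcg was at 0.06. Endothelial markers had 4 peaks, from Esam (-0.47) to Ets1 (0.74). Stellate and fibroblast markers had 3, from Col1a2 at -0.20 to another Col1a2 peak at 0.24, and Schwann cell markers had 1, Cdh19 at 0.67. The part of cell composition in the other results was not tested.

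Among signalling lists, TGF-beta and activin genes had the highest median with 12 peaks, 0.38, and 9 of 12 were above 0. Promoters made up 9 of these 12 peaks, and 54.4% of all promoter peaks and 48.9% of all peaks were above 0. None of the 12 passed the FDR. At an unadjusted p under 0.05, 1 had a higher value, beside 0.843% of all peaks. This was the promoter of the activin receptor gene Acvr2a. It was listed at 4.72 and 5.51 in the authors' deposited table (0.79, interval 0.07 to 1.51). The lowest was Skil, a SMAD corepressor gene, at -0.15. The 6 cell cycle inhibitor promoters had a median of 0.29, from Cdkn2d at 0.00 to Cdkn2c at 0.54. Cell cycle drivers had 21 peaks at a median of 0.04, from the Cdk1 promoter (-0.68) to the Cdk6 promoter (0.79). MAPK cascade genes had 22 peaks at 0.22, from a Sos2 intron (-0.73) to the Sos1 promoter (0.67). EGF and neuregulin ligands with their receptors had 9 at 0.18, from an Erbb4 intron (-0.87) to a Nrg3 exon (0.42). In none of the last 4 lists did a peak have an unadjusted p under 0.05.

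The medians of the metabolic and housekeeping lists lay within the quartiles of the whole table (-0.27 and 0.24). Glycolysis genes had 7 peaks with a median of -0.25, the lowest median of any list, with the highest peak at Gapdh (0.15). At an unadjusted p under 0.05, 2 of these 7 peaks had a lower value, beside 2.30% of all peaks. Respiratory chain and ATP synthase genes had 41 at -0.12, from Ndufb4 (-0.95) to Ndufa4 (0.64), and circadian clock genes 15 at -0.21, from Bhlhe40 (-1.10) to Hlf (0.64). Cholesterol synthesis genes had 18 at 0.14, from Lss (-0.26) to Dhcr7 (1.12). Cytosolic ribosomal protein promoters numbered 32 at 0.04, the lowest at Rps26 (-0.76). Unfolded protein response genes had 16 at -0.05, from Atf6b (-0.95) to Pdia6 (0.39). The largest list, zinc finger factors, had 220 peaks at 0.07. Ion channel genes had 63 at -0.05, the lowest at a Kcnh7 intron (-1.75), and solute carriers 100 at -0.01, from Slc35b1 (-1.62) to Slc35a1 (0.84).

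**Figure D4:**
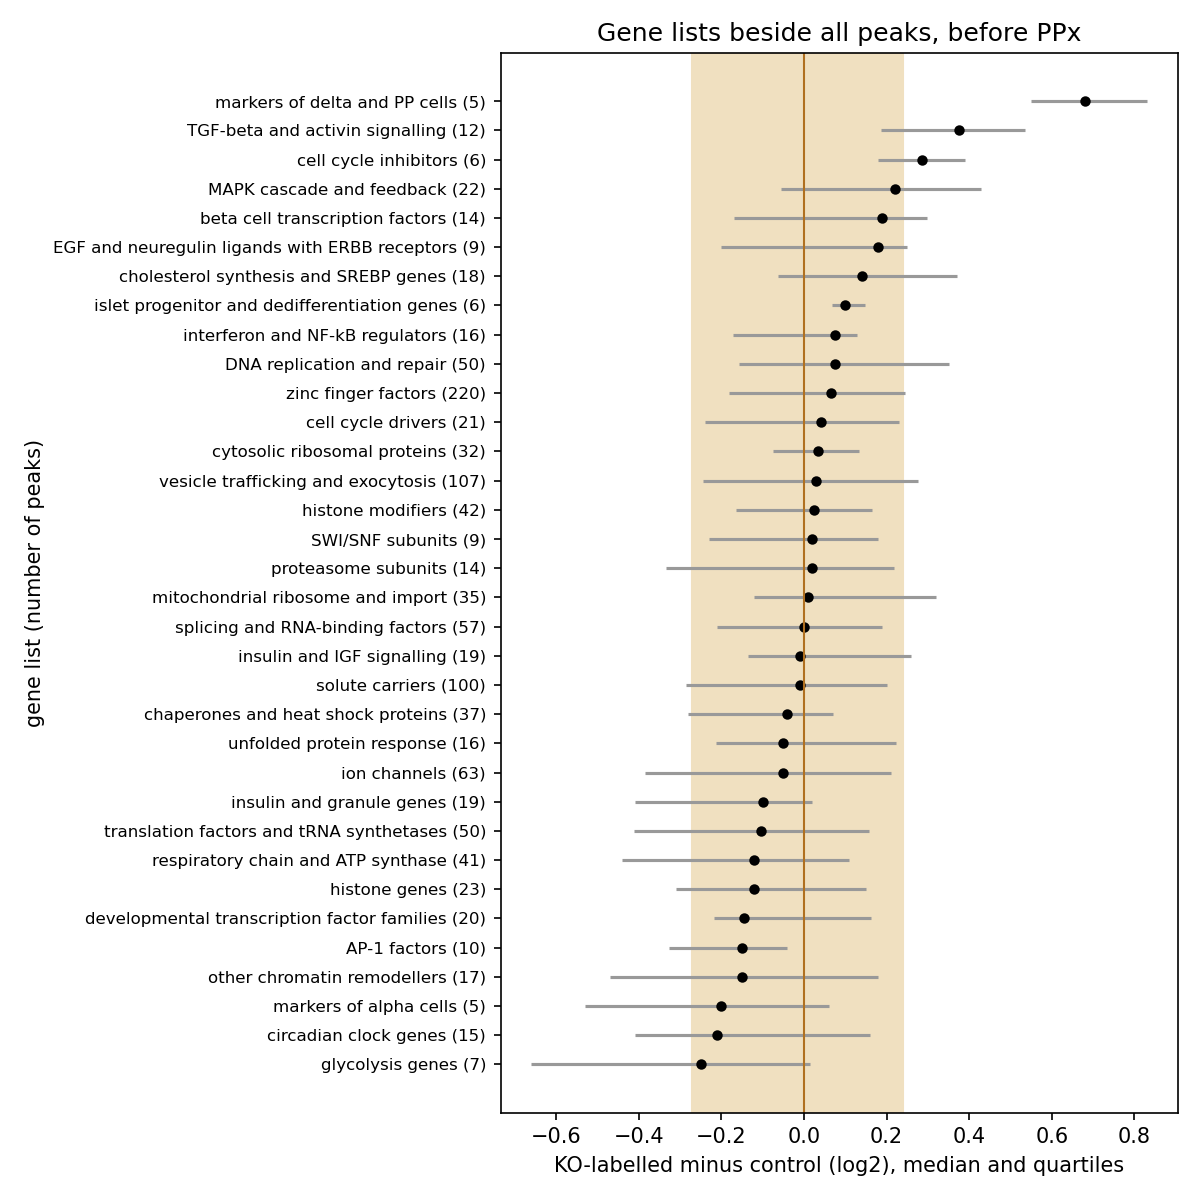
Points are the median log2 difference (KO-labelled minus control) of each gene list with at least 5 peaks, and lines run between its quartiles. The vertical line and band give the median (0.00) and quartiles (-0.27 and 0.24) of all 7826 peaks, and 3 list medians lie above the band.

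Promoter peaks, within 3 kb of a transcription start site, made up 5477 of the 7826 peaks. Their median difference was 0.04, while that of the other 2349 peaks was -0.12. Of the 180 lower peaks at an unadjusted p under 0.05, 126 lay outside promoters, as did 24 of the 66 higher peaks. Lower peaks thus made up 5.36% of peaks outside promoters and 0.986% of promoter peaks, and higher peaks 1.02% and 0.767%. Intron peaks had the lowest median of the larger classes, -0.21 over 750 peaks, and distal intergenic peaks had -0.12 over 1435. First introns (200 peaks) were at -0.15 and later introns (550 peaks) at -0.24.

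The difference also moved with concentration. Of 10 equal bins of concentration, the lowest had a median of -0.12 and the highest 0.18. Within the highest bin, promoters were at 0.21 (673 peaks) and other peaks at 0.02 (110 peaks). Averaged over the 10 bins, the gap between promoters and other peaks was 0.14, beside 0.16 without bins. How libraries were scaled is not stated in those sources, and its part in these medians was not tested.

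The same gap was present between peaks of the same gene. Promoter and other peaks were both listed for 590 genes. In 421 of them the promoter difference was above that of the other peaks, in 164 it was below and in 5 equal, with a median gap of 0.29. These genes share libraries and scaling, so the count is a description.

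The peaks of named genes with the highest mean concentration differed little. An exon 5 peak of Chl1 had the highest mean, at 12.75 in controls and 12.79 in KO-labelled islets in the authors' deposited table. It was followed by a distal Pak3 peak at 11.88 and 12.06. Across the 10 highest, differences ran from -0.58 (Ly6c2 distal) to 0.35 (Fam160a2 promoter), and all 10 intervals included 0. The others were Aida (-0.53), Cdk8 intron 2 (-0.20), Dpy19l2 distal (-0.03), Hjurp (0.13), Khsrp (0.16) and M6pr (0.29). The median concentration over all peaks was 4.02, and whether values as high as those of Chl1 and Pak3 reflect open chromatin was not tested.

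Base composition of promoters was read from the RefSeq windows, each of 300 bases. A window of the same gene overlapped 3379 of the 5477 promoter peaks by at least 150 bp. The windows were ranked by GC content in 5 equal bins. The highest bin (median GC 73.0%) had a median difference of 0.11, and the other 4 bins had 0.01 to 0.03. Across these promoters the correlation of GC content with the difference was r = 0.11, a weak value given as a description. CCAAT boxes were present in 47.9% of these windows and in 37.4% of all RefSeq windows, and peaks with and without one had medians of 0.01 and 0.07. GC boxes were present in 73.4% and 35.7%, with medians of 0.05 and 0.02. NRF1 letters (GCGCATGC, either strand) were present in 6.30% and 2.71%, with medians of 0.10 and 0.04.

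The same contrast was measured in other mice 6 days after PPx, in 4 control and 4 KO-labelled libraries that share none with those above. Of the 7826 peaks, 7504 overlapped a peak of that table by at least 1 bp. The median difference after PPx was 0.61 over that table of 13111 peaks, so values after PPx are read against this shift. Of the matched peaks, 15.6% were called higher after PPx at the authors' FDR of 0.05. Across matched peaks the differences of the 2 states had a Pearson r of 0.29 (Spearman rho 0.27), given as a description because peaks share libraries. It was 0.16 over promoter peaks and 0.33 over the others.

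The peaks with the strongest values before PPx mostly kept their side of the median of the table. Most of the lower ones were nevertheless above 0 after PPx. Of the 66 higher peaks at an unadjusted p under 0.05, 64 were matched and 46 of these (71.9%) lay above the median of the table after PPx, beside 55.9% of all matched peaks. Of the 180 lower peaks, 161 were matched and 128 (79.5%) lay below it, beside 42.9% of all matched peaks. The median of these lower peaks after PPx was 0.22, and 108 (67.1%) lay above 0, beside 93.2% of all matched peaks. At the authors' FDR of 0.05, 5 of them were called higher after PPx and 2 lower, beside 1173 and 9 of all matched peaks. Arid1a was higher in both states, by 4.28 before and 3.64 after PPx, and Ins1 was at 0.95 and 1.49. Slc30a8 was at -1.45 and -0.15, Kirrel3 at -1.32 and -0.93, and the Vps45 intron peak at -1.37 and -1.66. Fez2 was at 1.77 and -0.08.

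A two-sided z test of the difference between states, on the implied standard errors, called 0 of 7503 peaks (0%) at a Benjamini-Hochberg adjusted value of 0.05. At an unadjusted value under 0.05 there were 1085 peaks, and 120 after each table was centred on its own median. The lowest adjusted value was 0.093, at the promoter of the proteasome gene Psmd1, which was at -1.15 before and 1.59 after PPx. The Pgk1 promoter was left out of this test, because its difference of -2.08 after PPx stands beside a deposited p of 1, which gives no usable standard error.

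**Figure D5:**
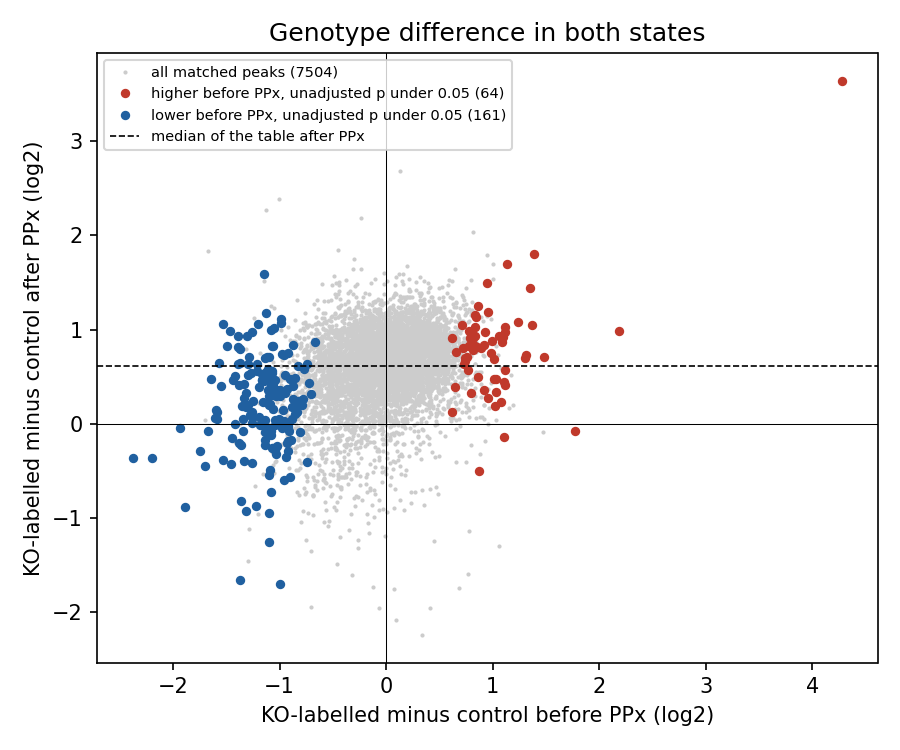
Each point is 1 of 7504 matched peaks, with its log2 difference (KO-labelled minus control) before PPx on the x axis and after PPx on the y axis. The dashed line is the median of the table after PPx, 0.61, and 46 of the 64 red points lie above it while 128 of the 161 blue points lie below it.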

How the data were processed

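Islet chromatin was profiled by ATAC-seq. The submitters' processing notes name the mm10 build and the tools BWA, cutadapt, ChIPseeker, DiffBind and MACS. Their versions and settings, and how libraries were scaled, are not given in the sources used here. For each peak the authors deposited log2 concentrations and log2 differences as group means, a p-value and an FDR, and the number of libraries with a call. Peaks are 601 bp wide and were called in at least 2 libraries.

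From 9023 rows, 1197 repeats were dropped, beside 1 blank row. Differences were turned to KO-labelled minus control. The standard error is the absolute difference over the normal quantile that matches a two-sided p. For differences under 0.1 or a p of at least 0.95 it is the median of 1 of 40 bins of concentration, and a difference of 0.2 or more beside such a p got none (1 peak after PPx). This z test was tested on simulated data, with p drawn from the same normal model, where implied and true errors gave the same calls. That criterion replaced an earlier one, on the number of changes recovered, which the first run had missed. p-values measure the spread between mice, 3 or 4 per group. No column of values per library was used.

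Members, lists and tests were chosen with earlier results of these data known. Named were all peaks of the SWI/SNF, beta cell factor and granule lists, the 12 higher and 12 lower peaks with the smallest p, the 6 with the smallest p among complete divisions of calls each way, the 10 of highest concentration (1 per gene, leaving out Gm, Rik and Mir symbols) and the extremes of other lists. Some peaks under this rule are not reported here. Psmd1 and Vps45 are such extremes, and Gm5274, Pgk1, Sst, Ptprz1, Gcg and the further Etv1 peaks were chosen after their values were seen. Alternatives were other FDR thresholds, re-adjustment, repeated rows, centring, promoters only, peaks at or above the median concentration and 1 peak per gene. Python 3.11 libraries pandas, numpy and scipy were used.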

Additional observations from a re-analysis of the deposited data

How the results depend on the processing

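The single higher call and the 0 lower calls in the deposited FDR (180 lower peaks had an unadjusted p under 0.05) held at an FDR of 0.01 and 0.1, with p re-adjusted over the listed peaks, with repeated rows kept, with centring and in peaks at or above the median concentration. The other thresholds could not change these counts, since the Arid1a FDR of 0.00187 was the only one below 0.1. Centring could not change them either, since the median over all peaks was 0.00. With promoter peaks only, 0 higher peaks were called, since the Arid1a peak is in an exon. The median over all peaks was 0.06 in peaks at or above the median concentration. The gap between promoters and other peaks ran from 0.14 to 0.20. Peaks called in every control and no KO-labelled library numbered 3 among promoters and 3 in peaks at or above the median concentration, and those called in every KO-labelled and no control library 39 and 6. The median concentration of these 2 sets was 3.91 and 3.64, beside 4.02 over all peaks. The cause of the drop was not tested. At a threshold of 0.1 the test between states called 1 peak. Centring was 1 of the alternatives for each of the 38 lists with peaks and could change no list median. Of 112 list medians under an alternative, these included, 10 changed sign. They include granule genes (0.01 with promoters only), SWI/SNF genes (-0.09 with promoters only) and delta and PP cell markers (-0.25 with the 1 promoter only). Leaving out single libraries was not run, because the tables hold group means. No paired analysis was possible because the groups share no replicate numbers. Group means are means of reads, so 1 library can weigh on a value, and depth per library is unknown.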

Other observations

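Among the peaks, 163 had a mean concentration under 1, that is under 2 normalised reads, and 66 of these were among the 79 peaks listed on chromosome Y. Calls in more than 1 library were listed for them all the same. Genes with 5 or more peaks, chosen after their values were seen, included Dgkb, a diacylglycerol kinase gene, whose 5 peaks ran from -0.90 to -0.18, and Pam, a peptide-amidating enzyme gene, whose 7 peaks ran from -0.60 to 0.52. None of the peaks of these 2 genes had an unadjusted p under 0.05.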
